A study of Gallus gallus with 58 samples.

Results

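Genes of the chicken Z chromosome were compared between male and female chicks and across treatment and age. A list of 51 genes described as Z-linked was matched to the probe sets whose only platform symbol is one of them, and the probe set with the highest mean stood for a gene with several. Of the 51 genes, 34 were measured, out of 11528 genes with a probe set of 1 symbol, and the other 17 were left out because no probe set carried their symbol alone. In the gene table of assembly GRCg7b, 31 of the 34 measured genes lie on chromosome Z. The remaining 3 (BAG1, CHMP5 and NFX1) lie on chromosome 2, which goes against the description of the list, and they are given apart.

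Whole blood of 58 newly hatched chicks was profiled on an Affymetrix gene array, with 1 array per chick. Chicks labelled CpG had received CpG-ODN 2007, a short synthetic DNA that activates TLR21, the chicken sensor of unmethylated CpG DNA, on the day of hatch; chicks labelled CTL were the controls, and what they received is not given in the sources used here, nor is the breed. Blood was taken 3 h after the injection (D0+3h; 10 CTL and 10 CpG chicks), on day 3 (D3; 8 and 8) or on day 6 (D6; 12 and 10), from different chicks each time. The CpG and age comparisons share these controls. Values are RMA expression levels on the log2 scale, where a difference of 1 is a 2-fold difference; whether a probe set lies above background is not known from them, and the number of chicks limits the precision.

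In birds the male carries a pair of Z chromosomes, and the female carries a single Z and a W. Birds lack the chromosome-wide dosage compensation of mammals, and many Z-linked genes are known to be expressed at a higher level in males. A stretch near DMRT1, the sex-determining gene of the chicken, is known as the male hypermethylated region and is transcribed into non-coding RNA in hens. Bird red cells keep their nucleus and are transcribed in the circulation. The red cell genes HBAD (13.82 to 14.43) and SLC4A1 (12.55 to 13.44), which encode a globin and the anion exchanger of the red cell membrane, were high on all arrays.

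Sex is not in the labels and was called from HINTW, a gene of the W chromosome that is not on the list, with a log2 level above 10 taken as female. This gave 31 males and 27 females. HINTW ran from 5.31 to 8.05 in the chicks called male and from 10.70 to 12.15 in those called female, so the nearest chicks on either side of the threshold were a control at D6 (chick 100, 8.05) and a CpG chick at D6 (chick 31, 10.70). The mean of 13 other W-linked genes ran from 5.32 to 6.09 in the males and from 7.11 to 7.64 in the females. A split at the middle of its range put 0 chicks in the other sex. The mean rests on part of the 13: by limma 7 were higher in females, and 6 did not pass. Among the 6 is MBD2, with medians of 10.12 in males and 10.09 in females. Controls held 6 males and 4 females at 3 h, 4 and 4 at D3, and 6 and 6 at D6. CpG groups held 7 males and 3 females at 3 h, 3 and 5 at D3, and 5 and 5 at D6. Each array's median correlation with its group mates lay between 0.942 and 0.980, and 4 arrays stood apart by more than 3 median absolute deviations. These were control chicks 74 at 3 h and 86 at D3, and CpG chicks 20 at D3 and 31 at D6. Members whose call changed without them are named.

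The first comparison asked how the Z-linked genes differ between the sexes when treatment and age are held. Most were moderately higher in males: of the 31 genes on Z, 20 were higher in males and 2, AK3 and VLDLR, were higher in females by limma, with p-values adjusted over 20804 probe sets, and 9 did not pass. Over all probe sets 3.12% passed, with 2.48% higher in males and 0.649% higher in females. The median difference of the 31 genes was 0.32 (log2, male minus female), a 1.25-fold difference, against -0.0054 over all probe sets. Of the 3 genes on chromosome 2, 0 passed, with differences of 0.06 for CHMP5, which encodes an ESCRT-III subunit, -0.02 for BAG1, which encodes a co-chaperone of HSP70, and -0.11 for NFX1, which encodes a transcription factor (limma's adjusted p between 0.717 and 0.966, and 0 of the 3 at an unadjusted p under 0.05).

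The other genes of chromosome Z behaved alike in direction. Of 482 other Z genes, 230 were higher in males, 5 were higher in females and 247 did not pass, with a median difference of 0.22. Of 10892 genes of the autosomes, 43 were higher in males and 39 in females, with a median of -0.0017. Genes of chromosome Z made up 250 of the 294 genes that were higher in males (85.0%) and 7 of the 56 that were higher in females (12.5%). Among all 11528 genes measured, 513 lie on Z, so both shares exceed that of Z among the measured genes.

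For the 20 Z-linked genes that were higher in males, the fold of males over females lay between 1.17 and 1.67. The upper 95% limits of these folds lay between 1.26 and 1.99, below the 2-fold ratio of Z copies in all 20; whether the array understates ratios was not tested. Without the 4 arrays that stand apart 20 genes were again higher in males, with DNAJA1 in and XRCC4 out, and 2 in females. Over all probe sets 697 passed there, against 650 with all arrays. In each of the 6 groups the difference of all 20 genes had the same sign, as did that of AK3 and VLDLR. These genes were picked by their difference over the same chicks, so the shared sign is no separate support. The share of all probe sets with the same sign in all 6 groups is not given here.

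**Figure D1:**
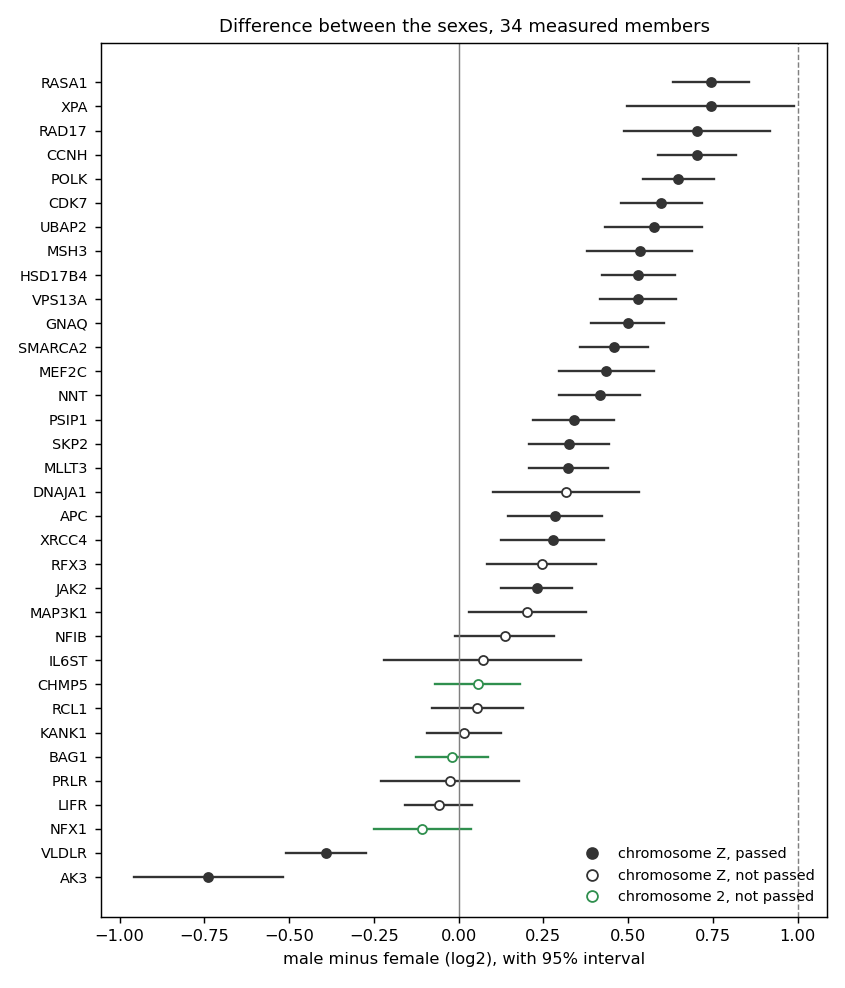
Male minus female difference (log2) of the 34 measured genes, with 95% intervals; filled points passed the test, open points did not, green marks chromosome 2, and the dashed line stands at 1 (2-fold). The 20 genes higher in males lie between 0.23 and 0.74, AK3 and VLDLR lie below 0, and no interval of a Z-linked gene reaches 1.

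All 5 measured DNA repair genes (XPA, RAD17, POLK, MSH3, XRCC4) were higher in males, with a median difference of 0.65. Of all 513 measured genes of Z, 48.7% were higher in males, and whether genes of 1 role differ from the rest of Z was not tested. XPA encodes a protein that verifies damage in nucleotide excision repair. It ran from 9.07 to 11.16 in males (median 10.19) and from 8.43 to 11.48 in females (median 9.00). The ranges overlap widely: 15 of the 27 females lay below every male, and CpG females at 3 h lay between 9.74 and 10.21. The highest value of all belongs to a female, control chick 86 at D3 (11.48), while the other females of its group lay between 8.43 and 8.62. The difference of XPA was 0.74 ± 0.12 (log2, SE; adjusted p = 8.86e-06), and 0.82 ± 0.08 without the 4 arrays that stand apart, of which chick 86 is one. A second XPA probe set differed by 0.53 ± 0.14 (adjusted p = 0.0190).

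RAD17, which loads the checkpoint clamp onto damaged DNA, ran from 7.92 to 9.65 in males (median 8.68) and from 6.79 to 9.15 in females (median 7.92). Its difference was 0.70 ± 0.11 (adjusted p = 1.27e-06). POLK encodes DNA polymerase kappa, which copies past lesions. It ran from 8.98 to 10.16 in males and from 8.10 to 9.55 in females, and 15 of 31 males lay above every female. Its difference was 0.65 ± 0.05 (adjusted p = 3.99e-15). MSH3, a mismatch repair gene, differed by 0.53 ± 0.08 (adjusted p = 3.38e-07), and its second probe set by 0.35 ± 0.06. XRCC4, the partner of DNA ligase IV in end joining, differed least of this set, by 0.28 ± 0.08 (adjusted p = 0.0208). The XRCC4 call was lost without the 4 arrays that stand apart (0.23, adjusted p = 0.105) and when CpG chick 3 at 3 h alone was left out (0.26, adjusted p = 0.0503). XRCC4 passed in 9 of 19 other ways of processing, some of which give the main fit again.

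The 3 cell cycle genes were all higher in males as well, where 48.7% of all measured Z genes were. CCNH and CDK7 encode cyclin H and its kinase, which together activate other cyclin-dependent kinases and form part of the transcription factor TFIIH. CCNH ran from 8.12 to 8.98 in males (median 8.66) and from 7.11 to 8.31 in females (median 7.95). Of the 31 males, 27 lay above every female, and 25 of the 27 females lay below every male. CCNH differed by 0.70 ± 0.06 (adjusted p = 5.73e-15). CDK7 ran from 8.35 to 9.62 in males and from 7.73 to 8.64 in females, with 22 males above every female, and differed by 0.60 ± 0.06 (adjusted p = 4.89e-12). SKP2, the substrate receptor of a ubiquitin ligase that removes cell cycle inhibitors, differed by 0.32 ± 0.06 (adjusted p = 5.35e-05).

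Among signalling genes RASA1, which encodes a GTPase-activating protein that switches Ras off, had the most males above every female. In controls at 3 h it averaged 8.68 ± 0.28 in males (SD, n = 6) and 7.99 ± 0.19 in females (n = 4). At D3 the control means were 8.53 ± 0.17 in males and 7.77 ± 0.17 in females (n = 4 each), and at D6 they were 8.49 ± 0.24 and 7.78 ± 0.19 (n = 6 each). In every group but the controls at 3 h the lowest male lay above the highest female. Over all chicks, RASA1 ran from 8.09 to 9.27 in males and from 7.46 to 8.25 in females, with 28 of 31 males above every female. The difference was 0.74 ± 0.06 (adjusted p = 1.79e-16), and the second RASA1 probe set gave 0.63 ± 0.06 (adjusted p = 4.77e-13).

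GNAQ, a G protein subunit that activates phospholipase C, ran from 8.69 to 9.51 in males and from 8.05 to 8.97 in females and differed by 0.50 ± 0.05 (adjusted p = 7.44e-11). APC, part of the complex that degrades beta-catenin, differed by 0.28 ± 0.07 (adjusted p = 0.00604). MAP3K1, a kinase upstream of the JNK and ERK pathways, had a difference of 0.20 (95% interval 0.03 to 0.38, adjusted p = 0.339). KANK1, a regulator of the actin cytoskeleton, had a difference of 0.02 (-0.09 to 0.13). The mean of KANK1 lies below 6.26, the level under which 40% of probe set means fall.

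Of the 4 cytokine receptor and signal genes measured, only JAK2, the kinase that couples many cytokine receptors to STAT proteins, passed, with 0.23 ± 0.05 (adjusted p = 0.00219). Of all measured Z genes, 48.7% were higher in males, and whether these 4 differ from the rest of Z was not tested. JAK2 ran from 11.81 to 13.16 in males (median 12.51) and from 11.60 to 12.87 in females (median 12.08). IL6ST encodes gp130, the shared receptor of the interleukin 6 family, and had a difference of 0.07 (95% interval -0.22 to 0.36). LIFR, the receptor of leukemia inhibitory factor, had a difference of -0.06 (-0.16 to 0.04), and PRLR, the prolactin receptor, of -0.02 (-0.23 to 0.18). The means of LIFR and PRLR lie below 6.26.

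Of the 6 chromatin and transcription genes on Z, 4 were higher in males. That share is near the 64.5% of all 31 Z-linked members, and 48.7% of all measured Z genes were higher in males. SMARCA2, an ATPase of the SWI/SNF remodelling complex, ran from 9.59 to 10.45 in males and from 9.15 to 10.03 in females. SMARCA2 differed by 0.46 ± 0.05 (adjusted p = 1.21e-10), and the transcription factor gene MEF2C differed by 0.44 ± 0.07 (adjusted p = 4.49e-06). PSIP1, which tethers proteins to transcribed chromatin, differed by 0.34 ± 0.06, and MLLT3, a reader of acetylated histones, by 0.32 ± 0.06. The transcription factor genes RFX3 and NFIB had differences of 0.24 ± 0.08 (adjusted p = 0.0941) and 0.14 ± 0.07 (adjusted p = 0.567). RFX3 passed when control chick 90 at D3 (0.27, adjusted p = 0.0464) or control chick 108 at D6 (0.27, adjusted p = 0.0258) was left out.

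UBAP2, a ubiquitin-associated protein gene, has a measured counterpart on the W chromosome, UBAP2L2. UBAP2 ran from 9.18 to 10.53 in males (median 10.10) and from 8.90 to 9.88 in females (median 9.54). Of 31 males, 25 lay above every female, and the difference was 0.58 ± 0.07 (adjusted p = 6.71e-09). UBAP2L2 itself ran from 3.88 to 6.00 in males and from 7.54 to 9.78 in females. DNAJA1, an HSP40 co-chaperone gene, had a difference of 0.32 ± 0.11 (adjusted p = 0.122), and passed without the 4 arrays that stand apart (0.38, adjusted p = 0.0384). RCL1, needed to process ribosomal RNA, had a difference of 0.06 (95% interval -0.08 to 0.19). For the absent members SMAD2, CHD1 and VCP, a probe set is shared with a gene of the W chromosome, so that both may be read; these probe sets differed by 0.39 ± 0.07, 0.72 ± 0.06 and 0.40 ± 0.04 and are not counted among the members.

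The metabolic and membrane genes went both ways. HSD17B4, a peroxisomal enzyme of fatty acid oxidation, ran from 7.97 to 9.24 in males and from 7.54 to 8.56 in females and differed by 0.53 ± 0.05 (adjusted p = 1.13e-11). VPS13A, which encodes a lipid transfer protein, ran from 9.48 to 10.89 in males and from 8.91 to 10.16 in females and differed by 0.53 ± 0.06 (adjusted p = 3.00e-11). NNT, the mitochondrial transhydrogenase that makes NADPH, differed by 0.42 ± 0.06 (adjusted p = 3.10e-07).

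AK3, a mitochondrial enzyme that transfers phosphate from GTP to AMP, was higher in females. Control males averaged 8.51 ± 0.21 at 3 h (SD, n = 6), 8.16 ± 0.61 at D3 (n = 4) and 8.06 ± 0.56 at D6 (n = 6). Control females averaged 8.89 ± 0.29 (n = 4), 8.69 ± 0.47 (n = 4) and 9.10 ± 0.29 (n = 6) at these times. Over all chicks AK3 ran from 7.26 to 9.03 in males (median 8.36) and from 8.12 to 9.48 in females (median 9.08), and 17 of 27 females lay above every male. The difference was -0.74 ± 0.11 (adjusted p = 6.81e-07), with males at 0.599 of the female level. The sexes of AK3 overlapped in each of the 6 groups.

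VLDLR encodes the very low density lipoprotein receptor, which in the hen takes up yolk precursors into the oocyte. In controls at 3 h it ran from 6.97 to 7.33 in males and from 7.49 to 7.91 in females, without overlap, and the same held for CpG chicks at D6 (6.36 to 6.75 and 6.85 to 6.98). The share of all probe sets with every female above every male was 0.808% in the first of these groups and 0.884% in the second. Over all chicks VLDLR differed by -0.39 ± 0.06 (adjusted p = 8.61e-07). Without group in the model its call was lost (-0.33, adjusted p = 0.134).

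**Figure D2:**
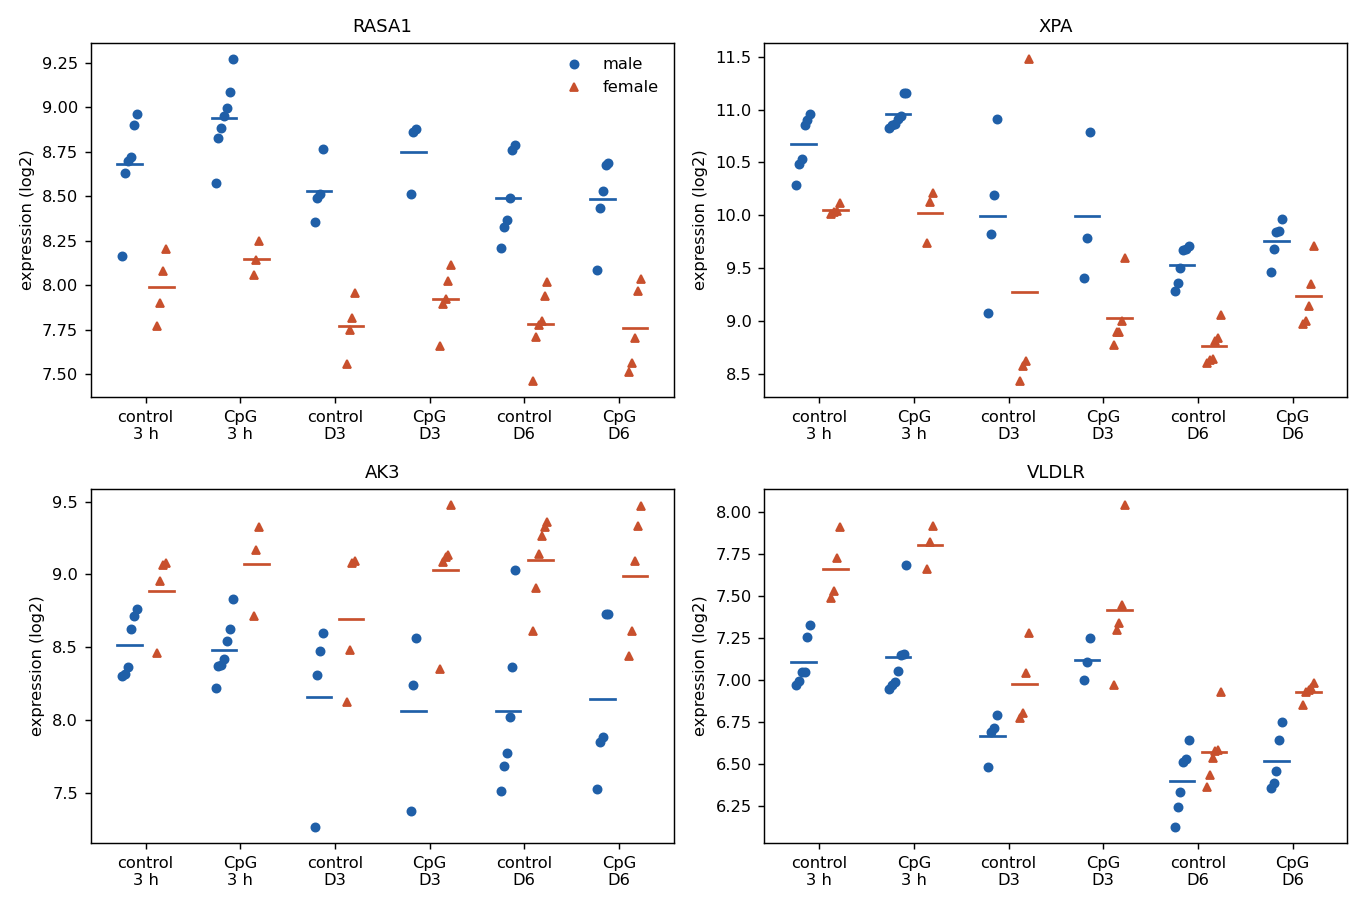
Expression (log2) of RASA1, XPA, AK3 and VLDLR in each chick by group, with males as blue circles, females as orange triangles and bars at the means. Males are above females on average in all 6 groups for RASA1 and XPA and below them for AK3 and VLDLR; the XPA value of 11.48 in a control female at D3 is chick 86.

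The difference between the sexes was larger among brighter probe sets. Of 24 Z-linked members with a mean of at least 6.26, 18 were higher in males, 2 were higher in females and 4 did not pass, with a median difference of 0.43. Of the 7 members below that level, 2 (MSH3 and XRCC4) were higher in males, 5 did not pass, and the median difference was 0.06. Over the 31 members the mean level and the difference had a Pearson correlation of 0.38 and a Spearman correlation of 0.54, and over the 482 other Z genes 0.45 and 0.67; these are correlations across genes measured on the same arrays, and genes are not independent replicates. Other Z genes at or above 6.26 had a median difference of 0.48 (270 genes, 73.7% higher in males). Those below it had 0.03 (212 genes, 14.6% higher in males).

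Averaged over the 31 Z-linked members, as the deviation of each gene from its mean over all chicks, the level ran from -0.16 to 0.47 in males (median 0.19) and from -0.37 to 0.05 in females (median -0.23). Within each of the 6 groups the lowest male lay above the highest female. The lowest male and highest female were at 0.06 and 0.02 in CpG chicks at D3, the closest pair, and at 0.03 and -0.21 in controls at D3. The average also moved with age in both sexes, so that females at 3 h overlap males at D6. No single member separated all 31 males from all 27 females, which 0.0385% of all probe sets did with males higher and 0.211% with females higher. Within groups more members did so. In controls every male lay above every female for 12 of the 31 members at 3 h, 12 at D3 and 7 at D6, where 2.41%, 2% and 0.976% of all probe sets did. In CpG chicks this held for 17, 8 and 10 members, where 2.35%, 2.14% and 1.72% of all probe sets did. RASA1, CCNH, POLK, CDK7 and GNAQ were separated in this way in 5 of the 6 groups. The share of all probe sets separated in 5 of the 6 groups is not given here, so this count has no background beside it.

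**Figure D3:**
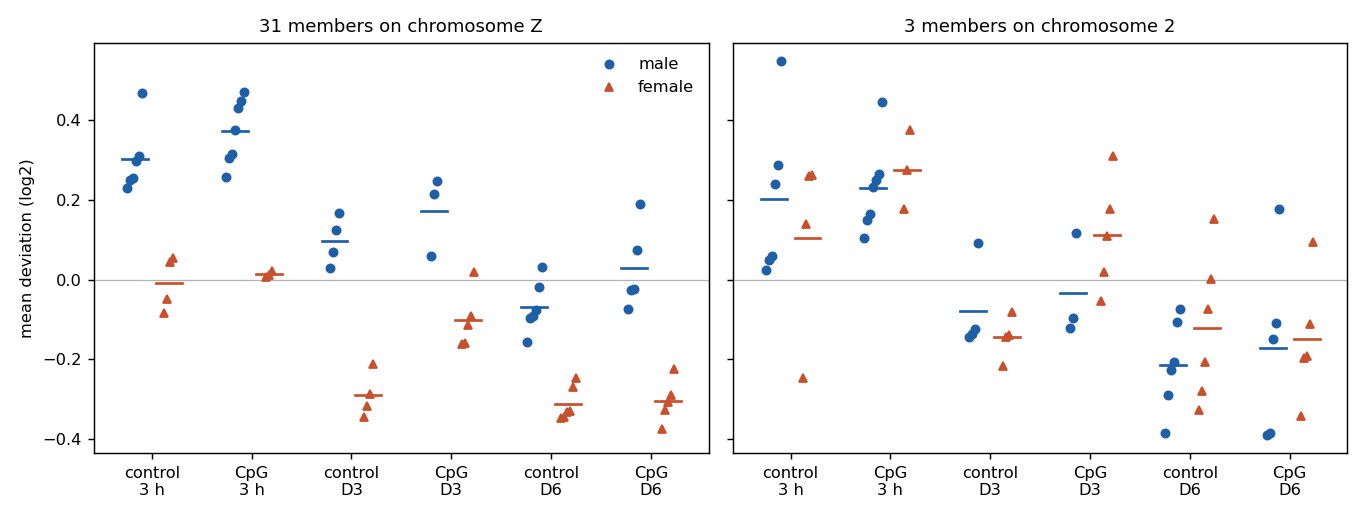
Mean deviation (log2) of the 31 members on chromosome Z (left) and the 3 on chromosome 2 (right) in each chick, by group and sex, with bars at the means. On the left the sexes are apart within each group and both shift down from 3 h to D3; on the right they overlap.

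Blood cell composition was followed with marker lists, each scored as the mean z-score of its measured genes. Males minus females, with group held, gave 0.11 ± 0.07 (SE) for the erythroid score (7 of 10 genes measured), 0.03 ± 0.15 for heterophils (9 of 11) and -0.08 ± 0.15 for monocytes (6 of 8). HEMGN, 1 of the 7 erythroid genes, itself lies on chromosome Z and was higher in males (0.50 ± 0.07, adjusted p = 8.99e-07); without it the erythroid score gave -0.0176 ± 0.0716. The difference was 0.21 ± 0.13 for thrombocytes (6 of 8), -0.17 ± 0.16 for B cells (5 of 8) and 0.01 ± 0.13 for T cells (8 of 10). With all 6 scores as covariates, 19 of the 20 male-higher calls and both female-higher calls remained, XRCC4 being the one lost (0.27, adjusted p = 0.0602). With HEMGN taken out of the score, an alternative chosen after seeing the data, all 20 and both calls remained. Over all probe sets 620 passed with the first scores and 635 with those lacking HEMGN, against 650 without scores. In whole blood, fewer cells of a type and less RNA per cell cannot be told apart.

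AK3 and VLDLR, the members higher in females, lie in 1 stretch of chromosome Z, which was singled out after the values were seen and carries no test. In the gene order of GRCg7b the stretch from KANK1 to JAK2 holds 17 measured genes, among them DMRT1 and the members SMARCA2, VLDLR, RFX3, AK3 and RCL1. Of the 17, 5 were higher in females, 3 were higher in males (SMARCA2, PUM3 and JAK2) and the median difference was -0.01. Of the 496 other measured genes of Z, 2 were higher in females and 247 in males, with a median of 0.26. Some genes of the stretch have means below 6.26, among them KANK1, DMRT3, KCNV2, GLIS3 and RCL1. Over the whole of Z, genes below that level that are not members had a median difference of 0.03. A low median is thus not particular to this stretch.

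The largest differences of this stretch belong to genes that are not members. LOC100859072, annotated as a non-coding RNA, ran from 3.82 to 7.05 in males and from 9.82 to 11.56 in females, without overlap, and differed by -5.85 ± 0.17. LOC427353, also non-coding, ran from 4.14 to 5.58 in males and from 5.98 to 8.94 in females and differed by -2.03 ± 0.13. SLC1A1, a glutamate transporter gene next to LOC427353 among the measured genes, differed by -0.81 ± 0.10. AK3 follows LOC100859072 in this order with only CDC37L1 between them, and CDC37L1, an HSP90 co-chaperone gene, had a difference of -0.01 ± 0.06. DMRT1 itself had a difference of -0.03 ± 0.06. SLC1A1, LOC427353 and LOC100859072 are consecutive among the measured genes, while VLDLR and AK3 each stand between measured neighbours that were not higher in females.

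The other 2 Z genes higher in females, MARVELD2, which encodes a tight junction protein (-1.08 ± 0.11), and MCCC2, a subunit of a leucine-degrading enzyme (-0.38 ± 0.07), lie near each other elsewhere, with GTF2H2 and SMN, both higher in males (0.39 ± 0.07 and 0.38 ± 0.06), between them. The means of MARVELD2 (4.47), SLC1A1 (4.62), LOC427353 (5.66) and MCCC2 (5.81) lie below 6.26, and that of LOC100859072 (7.38) lies above it. At the other end, the Z genes with the largest excess in males were FOCAD (0.98 ± 0.06), DCTN3 (0.92 ± 0.08), ERAP1 (0.88 ± 0.10), MRPS30 (0.87 ± 0.07) and the cholesterol exporter gene ABCA1 (0.86 ± 0.07). The differences of these 5 genes all exceed the 0.74 of RASA1.

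**Figure D4:**
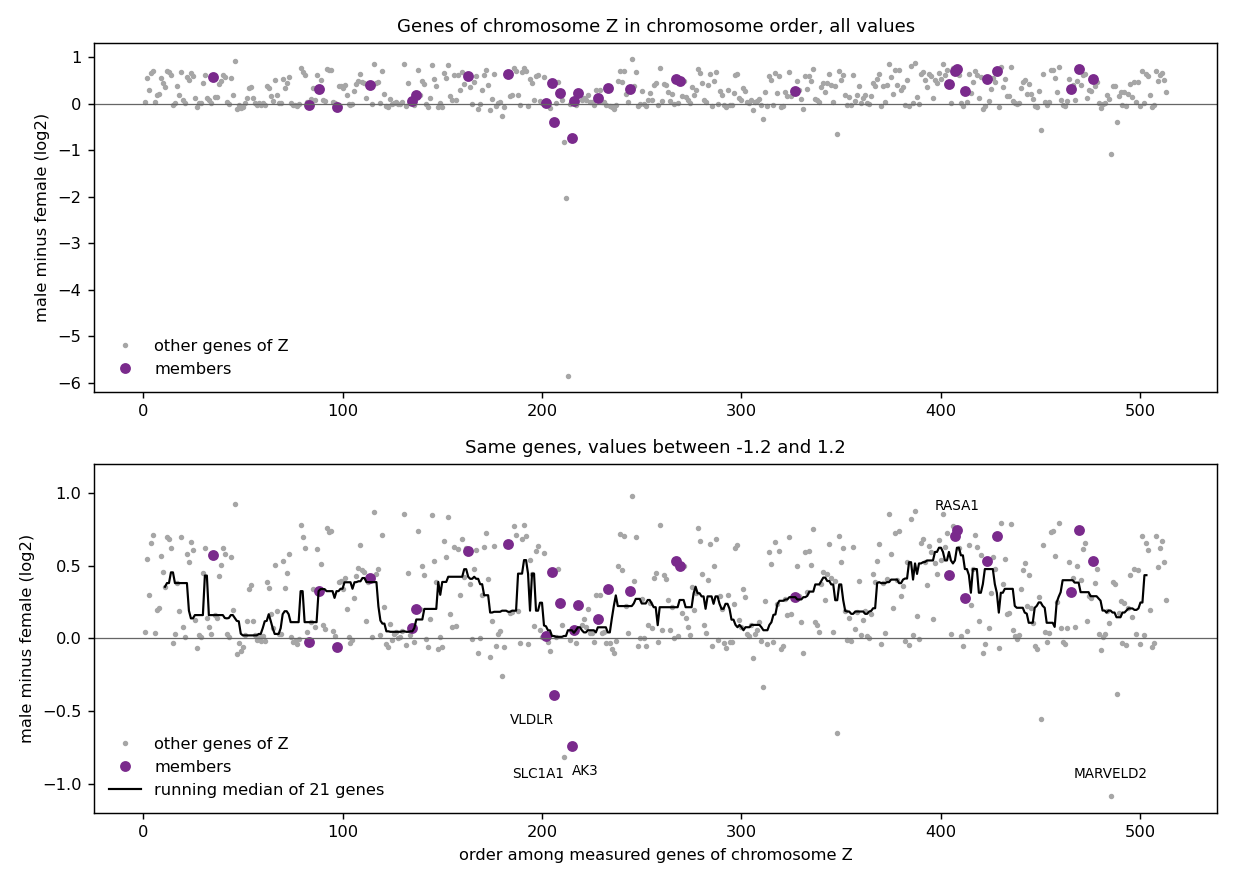
Male minus female difference (log2) of the 513 measured genes of chromosome Z in chromosome order, members in purple and other genes in grey; the lower panel shows the range from -1.2 to 1.2 with a running median of 21 genes. Most genes lie above 0, and AK3 and VLDLR lie below 0 in a stretch where the running median falls close to 0. The running median also comes close to 0 elsewhere on Z, as at RUSC2 (0.02).

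The next question was whether the difference between the sexes depends on treatment or age. The median difference over the 31 Z-linked members was 0.38 in controls at 3 h, 0.43 at D3 and 0.24 at D6, and 0.43, 0.33 and 0.37 in CpG chicks at these times. Limma's F test of unequal differences over the 6 groups called 0 members and 0% of all probe sets; 5 members and 1298 probe sets had an unadjusted p under 0.05, and the smallest adjusted p of a member was 0.628. RASA1 had differences between 0.69 and 0.83 in the 6 groups. RAD17 had differences from 0.09 ± 0.26 (SE) in CpG chicks at D3 to 1.23 ± 0.23 in CpG chicks at D6.

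CDK7 ranged from 0.33 ± 0.15 to 0.94 ± 0.13 in the same groups, and JAK2 from 0.05 ± 0.11 in controls at D6 to 0.56 ± 0.13 in controls at D3. The change of the CpG effect with sex called 0 members and 0% of probe sets at each time by limma, with 623, 1507 and 1993 probe sets and 1, 3 and 4 members at an unadjusted p under 0.05. CDK7 at D6 had the smallest adjusted p of a member in these comparisons (0.58 ± 0.17, adjusted p = 0.374), so that no dependence of the sex difference on treatment or age was detectable with these numbers of chicks.

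Treatment itself was then compared with sex held in the model. At 3 h, 0 members and 0% of probe sets passed in limma (1043 probe sets and 1 member, RASA1, had an unadjusted p under 0.05), and the CpG minus control differences of the 34 members lay between -0.20 and 0.23. At D3, 0 members passed in limma and 9 had an unadjusted p under 0.05, against 0.38% of probe sets that passed (0.293% higher and 0.0865% lower in CpG chicks; 3364 at an unadjusted p under 0.05). VLDLR came closest: controls lay between 6.48 and 7.28 and CpG chicks between 6.97 and 8.04, with a difference of 0.44 ± 0.11 (adjusted p = 0.0514). The VLDLR value passed when any 1 of 11 chicks was left out (adjusted p from 0.0160 to 0.169 over the 58 chicks left out in turn). These were CpG chicks 9 and 10 at 3 h, 13 and 20 at D3 and 31 at D6, and control chicks 74 and 82 at 3 h, 88, 89 and 90 at D3 and 101 at D6. The heterophil score ran from 0.51 to 2.50 in CpG chicks at D3 and from -0.47 to 0.64 in controls, and its part in this difference was not tested alone. Other scores differed too. In group means, controls first, the thrombocyte score was -0.45 and 0.27, the monocyte score 0.01 and 0.51, and the B cell score 0.01 and -0.57. The erythroid score was 0.06 and -0.02, and the T cell score 0.03 and 0.16. With all 6 scores as covariates the VLDLR difference was 0.35 (adjusted p = 0.484). Over all probe sets 2 passed in that fit, against 79 without the scores.

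At D6, MAP3K1 was the 1 member that passed, against 2.35% of all probe sets, 1.7% higher and 0.649% lower in CpG chicks. MAP3K1 ran from 6.37 to 7.00 in the 12 controls (median 6.61) and from 6.78 to 7.88 in the 10 CpG chicks (median 7.44). Of the 10 CpG chicks, 7 lay above every control. The difference was 0.73 ± 0.14 (adjusted p = 0.000983), with group means of 6.73 ± 0.17 and 7.36 ± 0.34 in males (SD, n = 6 and 5) and 6.53 ± 0.11 and 7.36 ± 0.40 in females (n = 6 and 5). The monocyte score ran from -1.34 to -0.17 in the controls at D6 and from -0.36 to 1.21 in the CpG chicks, and the heterophil score from -1.25 to -0.29 and from -0.99 to 1.42. The thrombocyte score ran from -2.52 to -0.10 in these controls and from -0.56 to 0.72 in the CpG chicks. In group means, controls first, the erythroid score was 0.59 and 0.21, the B cell score 0.54 and 0.40, and the T cell score 0.31 and 0.62. With the 6 cell scores as covariates the MAP3K1 difference was 0.07 (adjusted p = 0.902). Over all probe sets 8 passed in that fit, against 489 without the scores. The scores themselves differ between CpG and control chicks, and the cause of this loss was not tested.

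In control chicks the first days of life moved more of these genes than CpG did, as was true of all probe sets. From 3 h to D3, 12 members fell and 1 rose by limma, where 25.2% of all probe sets passed (13.2% fell and 12% rose). JAK2 fell from a range of 12.66 to 13.13 at 3 h to 11.60 to 12.51 at D3, so that all 8 chicks at D3 lay below all 10 at 3 h, as 1.37% of probe sets did. Its change was -0.74 ± 0.09 (adjusted p = 1.36e-08). IL6ST fell from 6.31 to 8.62 at 3 h to 5.65 to 6.25 at D3, also without overlap, with a change of -1.29 ± 0.26 (adjusted p = 9.90e-05), the largest of the members.

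The repair genes POLK and XPA fell by 0.63 ± 0.09 (log2; adjusted p = 5.21e-07) and 0.71 ± 0.22 (adjusted p = 0.0115). The XPA change was -1.02 without chick 86 and -1.05 without all 4 arrays that stand apart. Without those 4 arrays 13 members fell, with UBAP2 added, while calls over all probe sets grew from 5237 to 5715. APC fell by 0.71 ± 0.12, HSD17B4 by 0.67 ± 0.10, MEF2C by 0.63 ± 0.12, VPS13A by 0.62 ± 0.10, VLDLR by 0.55 ± 0.10 and PSIP1 by 0.36 ± 0.11 (adjusted p of 0.00776 or less). Of the chromosome 2 genes NFX1 fell, by 0.67 ± 0.13 (adjusted p = 4.29e-05). CCNH fell by 0.29 ± 0.10 (adjusted p = 0.0267), and that call was lost when control chick 81 at 3 h (-0.27, adjusted p = 0.0542), or 86 (-0.21, adjusted p = 0.118) or 92 at D3 (-0.27, adjusted p = 0.0591) was left out.

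DNAJA1, the co-chaperone gene, was the member that rose, from 10.45 to 11.08 at 3 h to 10.98 to 11.99 at D3, by 0.83 ± 0.19 (adjusted p = 0.000626). The thrombocyte score ran from -0.34 to 1.40 in controls at 3 h and from -1.04 to -0.06 at D3, and the erythroid score from -1.06 to -0.19 and from -0.40 to 0.47. In mean the T cell score rose from -0.63 at 3 h to 0.03 at D3 and the B cell score from -0.19 to 0.01. The monocyte score fell in mean from 0.31 to 0.01 and the heterophil score from 0.10 to 0.06. With the 6 scores as covariates 7 of the 12 falls and the rise of DNAJA1 passed, JAK2 with a change of -0.70 (adjusted p = 0.000483). Of the 5 that did not pass, IL6ST changed by -0.28 (adjusted p = 0.658), PSIP1 by -0.09 and APC by -0.34 (adjusted p = 0.792 and 0.225). VLDLR and XPA changed by -0.46 (adjusted p = 0.0579) and -0.51 (adjusted p = 0.206) in that fit, against -0.55 and -0.71 without the scores. Over all probe sets 1564 passed with the scores, against 5237 without them.

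From D3 to D6, 5 members fell and 1 rose, where 15.2% of all probe sets passed (8.22% fell and 6.95% rose). NNT fell by 0.39 ± 0.10 (adjusted p = 0.00699), SMARCA2 by 0.34 ± 0.09, VLDLR by 0.34 ± 0.10, PSIP1 by 0.33 ± 0.10 and CDK7 by 0.31 ± 0.10 (adjusted p = 0.0278). RFX3 rose by 0.52 ± 0.14 (adjusted p = 0.00689), and 11 of the 12 chicks at D6 lay above every chick at D3. The CDK7 call was lost without control chick 90 (-0.21, adjusted p = 0.135) or 92 at D3 (-0.29, adjusted p = 0.0587) or 108 at D6 (-0.29, adjusted p = 0.0522). The PSIP1 call was lost without control chick 88 at D3 (-0.28, adjusted p = 0.0603). With the cell scores as covariates 0 of these 6 changes passed in limma (adjusted p between 0.183 and 0.563). Over all probe sets 755 passed in that fit, against 3157 without the scores. CDK7 changed by -0.26, VLDLR by -0.27 and RFX3 by 0.31 in that fit, and SMARCA2, PSIP1 and NNT by -0.20, -0.17 and -0.16; a call lost there does not show that a change is due to cell composition. Without the 4 arrays that stand apart 7 members fell, with RAD17 and RCL1 added, and 2 rose, with KANK1 added. Calls over all probe sets also grew there, from 3157 to 4503. The thrombocyte score ran from -2.52 to -0.10 in controls at D6 and the heterophil score from -1.25 to -0.29, each lower in median than at D3. In mean the monocyte score also fell, from 0.01 at D3 to -0.83 at D6. The erythroid score rose in mean from 0.06 to 0.59, the B cell score from 0.01 to 0.54 and the T cell score from 0.03 to 0.31. Over the 6 groups together, 29 of the 34 members differed by limma's F test, where 63.3% of all probe sets did.

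**Figure D5:**
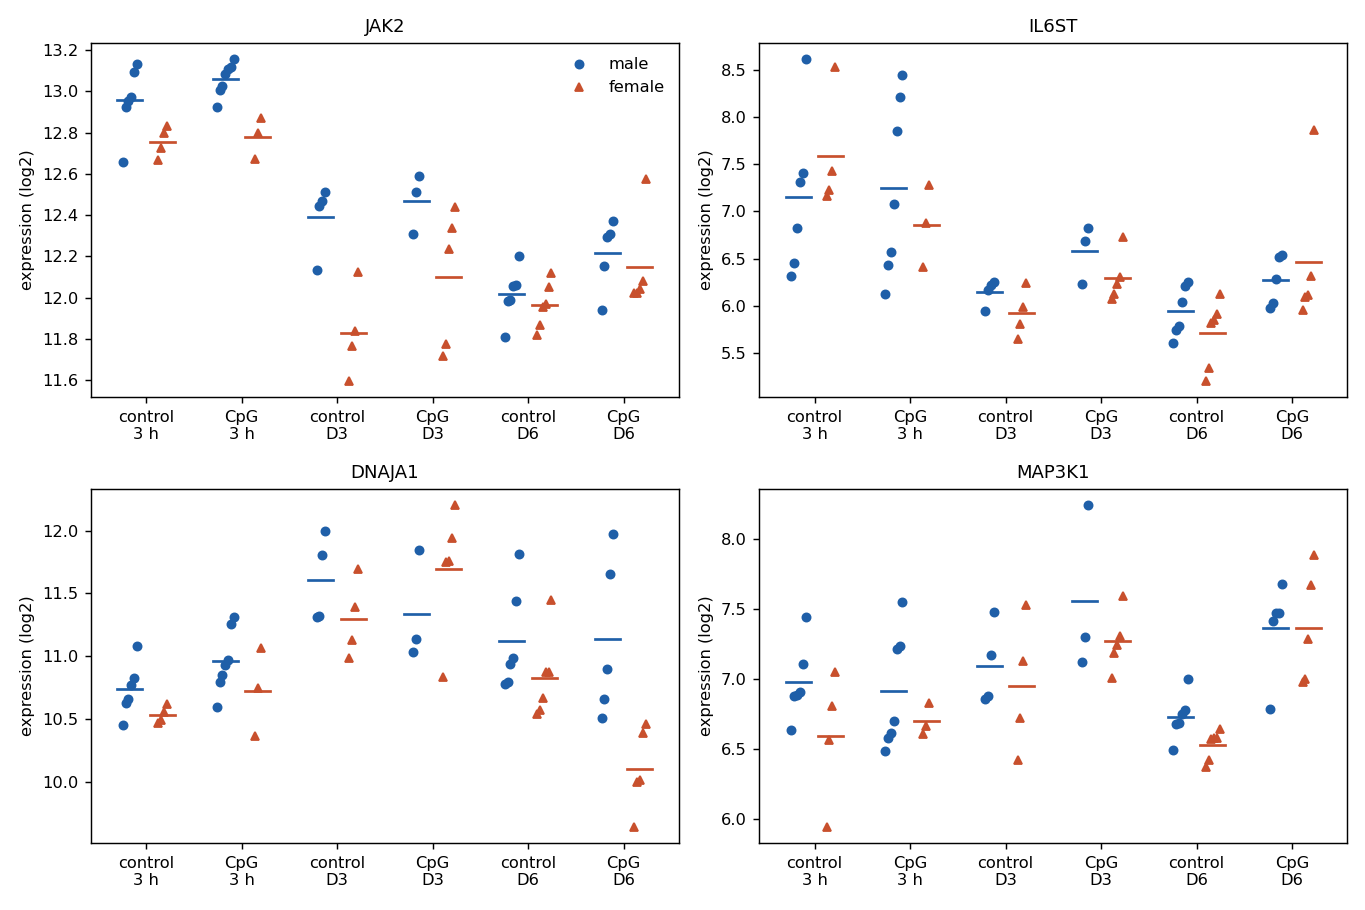
Expression (log2) of JAK2, IL6ST, DNAJA1 and MAP3K1 in each chick by group, with males as blue circles, females as orange triangles and bars at the means. JAK2 and IL6ST are highest at 3 h, DNAJA1 is higher at D3 than at 3 h in controls, and MAP3K1 at D6 is higher in CpG chicks than in controls.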

How the data were processed

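Per the labels' protocols, blood went into PAXgene tubes for RNA extraction. Per the submitters' processing notes, the deposited values come from RMA and are log2 levels, for 20804 probe sets (1.12 to 14.7, array medians 6.64 to 6.78). The version of RMA and its settings were not given in the sources used here. Values were used as deposited. Symbols come from the platform table; GRCg7b gave chromosomes and gene order.

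Limma 3.58.1 in R 4.3.3 was fitted to all 58 arrays with 1 mean per group and sex as a covariate (51 residual and 4.47 prior degrees of freedom), or with 1 mean per group and sex. P-values are two-sided and adjusted by Benjamini-Hochberg over 20804 probe sets, with a threshold of 0.05. P-values weigh each difference against the spread between arrays, which limma moderates over probe sets. With 1 array per chick, differences between chicks and in sample handling cannot be told apart in that spread. The labels name no hybridisation batch. Alternatives changed the probe sets tested, the normalization, the prior, array weights, covariates, the HINTW threshold and the arrays used. In simulated data for the comparison of the sexes (20804 probe sets), 68.7% of 1.25-fold, 94.0% of 1.5-fold and 100% of 2-fold changes were recovered. There 4.37% of calls were false. The noise was drawn as normal and independent between probe sets, unlike real arrays, so this share is close to set by the threshold. For CpG, recovery of 1.25-fold and 1.5-fold changes was 25.4% and 68.7% at 3 h, 19.4% and 80.6% at D3, and 38.8% and 83.6% at D6. For age in controls it was 19.4% and 70.1% from 3 h to D3, and 32.8% and 80.6% from D3 to D6. Only 200 probe sets were changed for each comparison, so the number of calls differed from the data. It was 128 against 5237 from 3 h to D3, and 131 against 0 for CpG at 3 h. The adjustment is stricter with fewer calls, so recovery in the data may be higher in the first case and lower in the second.

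The members and lists were chosen with earlier results of these data known. Named were the 12 members with the largest difference between the sexes, those that did not pass, the member with a W-linked namesake, members called in a CpG comparison, those with the largest changes over time, and the 5 largest Z differences each way; other members that passed are named too.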

Additional observations from a re-analysis of the deposited data

Results flagged for a closer look

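Within groups of 4 to 7 chicks of 1 sex, the highest or lowest chick was marked when its gap to the next exceeded Dixon's 95% critical value. CpG females at 3 h and CpG males at D3, with 3 chicks each, were below that size. The tests covered some of the members, the average of the Z-linked members and HINTW. Of 160 such tests 16 were marked, where chance would mark about 1 in 20 groups, or 8 here, if the tests were independent. They are not, because they share chicks and arrays and the average is made of members. HINTW also set the sexes of the groups in which it was tested. The 16 marks can therefore not be read as an excess over the 8.

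In XPA, control female 86 at D3 was high (11.48, with the others between 8.43 and 8.62), and so was CpG female 14 at D3 (9.59, others 8.77 to 9.00). CpG female 14 was also high in MSH3 (6.27, others 5.75 to 5.86). RAD17 was low in CpG female 31 at D6 (6.96, others 7.52 to 7.75), and CCNH was low in control female 86 at D3 (7.11, others 7.77 to 7.86). Control female 91 at D3 was low in POLK (8.10, others 8.64 to 8.71) and in HSD17B4 (7.54, others 7.82 to 7.84). CDK7 was low in CpG female 17 at D3 (8.47, others 8.59 to 8.64). UBAP2 was low in control male 74 at 3 h (9.18, others 10.01 to 10.46). GNAQ was low in CpG male 1 at 3 h (8.96, others 9.25 to 9.41), and VLDLR was high in CpG male 9 at 3 h (7.68, others 6.95 to 7.16).

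The average of the Z-linked members was high in control male 79 at 3 h (0.47, others 0.23 to 0.31). HINTW was high in the same male 79 (7.46, others 5.31 to 5.70), in control male 100 at D6 (8.05, others 5.50 to 6.31) and in CpG male 28 at D6 (7.40, others 5.61 to 6.09). It was low in CpG female 31 at D6 (10.70, others 11.42 to 11.60). Control chicks 74 and 86 and CpG chick 31 are among the 4 arrays that stand apart.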

How the results depend on the processing

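No paired analysis was possible because the groups share no chick numbers. The sex comparison was repeated in 20 ways, 1 of them (cell scores without the Z-linked marker HEMGN) chosen after seeing the data. RASA1, CCNH, POLK, UBAP2, VPS13A and GNAQ passed in each. Some of the 20 ways repeat the main fit. A HINTW threshold of 9 and the split on the other W-linked genes moved no chick. Taking the dimmest probe set changes nothing for a gene with only 1. In smaller sets of arrays fewer members passed: at D3 alone 6 were higher in males and 0 in females, and at D6 alone 12 and 1. With control arrays alone XPA, SKP2, MLLT3, APC, XRCC4 and JAK2 did not pass. The share of all probe sets that passed in these smaller sets is not given here, so these counts have no background beside them. The same holds for the other alternatives below unless a count over all probe sets is stated. Without a group term 1 was higher in females. For CpG at D3, VLDLR passed (1 member higher) without the dimmest 40% of probe sets, with median centring, with 1 probe set per gene and without rows identical to another. For CpG at D6, 0 members passed with either set of cell scores, and 2 with D6 arrays alone (MAP3K1 and XPA). From 3 h to D3, 2 members rose (DNAJA1 and NNT) without the dimmest 40%, with array weights, with repeated quantile normalization and with 1 probe set per gene, and 7 fell with cell scores or 6 with those lacking HEMGN (VPS13A lost, adjusted p = 0.0765). From D3 to D6, 3 rose with array weights, 2 without the arrays that stand apart and 0 with either set of cell scores; 0 fell with either set and 1 without a sex term. Over all probe sets, 8 passed for CpG at D6 with cell scores and 7 with those lacking HEMGN, against 489 in the main fit. From 3 h to D3 these fits gave 1564 and 1287, against 5237, and from D3 to D6 755 and 1058, against 3157. The cause of these shifts was not tested.

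Leaving out 1 chick at a time gave 0 to 1 members higher for CpG at D3, 1 to 2 rising from 3 h to D3 (2 without control 76 or 79 at 3 h, 88 at D3 or 107 at D6) and 1 to 2 from D3 to D6 (2 without CpG chick 9 at 3 h or control 86 or 89 at D3 or 99 or 105 at D6). Signs turned only in members that did not pass in the comparison of the sexes. With D3 arrays alone DNAJA1 was at -0.0132, RCL1 at -0.10 and PRLR at 0.0661. With 3 h arrays alone IL6ST was at -0.0473, KANK1 at -0.10, BAG1 at 0.0458 and LIFR at 0.0739. With CpG arrays alone NFIB was at -0.0643, CHMP5 at -0.0056, RCL1 at -0.0176 and PRLR at 0.0836. With cell scores CHMP5 was at -0.0058 and PRLR at 0.042, and with the scores lacking HEMGN IL6ST was at -0.0283 and PRLR at 0.0566. PRLR was at 0.15 with D6 arrays alone, KANK1 at -0.13 with its dimmer probe set, and BAG1 at 0.0017 without a group term. Leaving out 1 chick, KANK1 ranged from -0.0017 to 0.0323 and PRLR from -0.0604 to 0.0014. Signal over background is unknown, which limits the 7 dim members most.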
